A study of Arabidopsis thaliana with 24 samples.

Results

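The data described here are the 6 dry-seed libraries, of 24 libraries in the series, that compare a double insertion mutant of Arabidopsis thaliana with the wild type. They were chosen by their labels alone: tissue seed with the genotype heso1-4 urt1-1 (3 libraries) or WT (Col-0) (3 libraries). Both groups are of the Columbia accession and were grown under the same protocol. The double mutant carries urt1-1, a SALK T-DNA line, and heso1-4, a GABI-Kat T-DNA line, and WT carries neither. Each library came from dry mature seed of at least 5 plants, harvested 8 weeks after flowering began, so that a library is a pool of plants and each mutant allele is represented by a single line. Total RNA (500 ng) was depleted of ribosomal RNA and sequenced as strand-specific pairs of 50-base reads, and the deposited values are raw counts per gene. The other libraries of the series are seeds of urt1-1 and heso1-4 and unopened flower buds of all 4 genotypes, collected 2 weeks after flowering began, which are used only to show where the seed values of the double mutant stand.

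URT1 and HESO1 are terminal uridylyltransferases, enzymes that add uridines to the 3′ end of RNA. In Arabidopsis, URT1 is the main enzyme for messenger RNAs whose poly(A) tail has been shortened, and it limits the trimming of such tails and the production of small interfering RNAs from them. HESO1 acts mainly on small RNAs that lack the methyl group placed by HEN1, and uridylation by HESO1 marks them for decay. A dry seed makes little new RNA and carries a store of messenger RNAs made during maturation, rich in messages for storage proteins and for proteins that protect against drying.

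The 2 targeted genes behaved differently from each other. URT1 (AT2G45620, protein coding, chr2:18792864-18795904, plus strand) stood at 109, 104 and 110 CPM (counts per library scaled to the same total after TMM normalization) in the WT libraries and at 3.42, 3.80 and 3.64 CPM in the libraries labelled heso1-4 urt1-1. The groups lay far apart, and URT1 fell 29.7-fold, a log2 fold change of −4.89 ± 0.11 (SE; edgeR adjusted p = 8.7e-13). HESO1 (AT2G39740, protein coding, chr2:16575752-16579120, plus strand) stood at 0.391, 0.584 and 0.381 CPM in WT and at 51.9, 46.8 and 48.5 CPM in the libraries labelled heso1-4 urt1-1. All 3 mutant libraries were thus higher, not lower, than every WT library, and HESO1 rose 109-fold (log2 6.71 ± 0.20, edgeR adjusted p = 2.0e-11). HESO1 therefore goes against the label, and every direction given here is drawn from libraries labelled heso1-4 urt1-1 in which loss of HESO1 RNA was not seen. The count is taken over the whole gene, and the sources used here do not give the place of the insertion. Seeds labelled heso1-4 alone held more of this RNA, at 187, 177 and 181 CPM, and the libraries labelled heso1-4 urt1-1 lay below them (log2 −1.89 ± 0.13, edgeR adjusted p = 2.2e-06).

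Few genes passed the test. Of 17939 genes tested with edgeR's quasi-likelihood test, 7 were higher in the libraries labelled heso1-4 urt1-1 (0.039%) and 3 lower (0.0167%) at a Benjamini-Hochberg adjusted p under 0.05, together 0.0557%. The median log2 fold change over all genes was −0.0061, and 48.9% of genes lay above 0. Unadjusted p was under 0.05 for 847 genes higher (4.72%) and 699 lower (3.9%). DESeq2 called 58 higher (0.323%) and 20 lower (0.111%), among them 9 of the 10 genes called by edgeR. With the replicate number as a block, edgeR called more genes in both directions, as given in the closing section. Of the 10 genes, 7 lie on chromosome 2, which holds 2676 of the genes tested. These 7 include URT1 and HESO1, AT2G45630 beside URT1, and MIR5642b and AT2G01008, which overlap, so they are not 7 separate cases. Besides HESO1, the genes that rose were AT2G16586, AT5G24240, AT2G34700, AT2G01008, ARP9 and the microRNA precursor gene MIR5642b, and besides URT1, those that fell were AT2G45630 and the precursor gene MIR5642a.

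**Figure D1:**
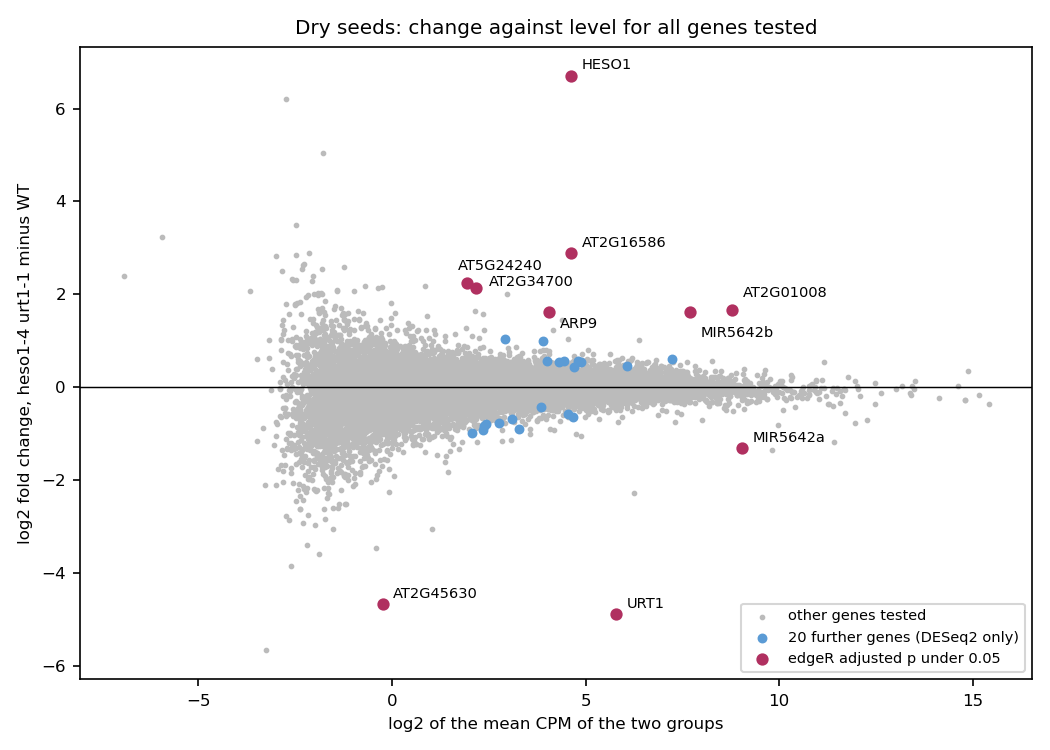
Log2 fold change (libraries labelled heso1-4 urt1-1 minus WT) of the 17939 genes tested in dry seeds against the log2 of the mean CPM of both groups. Red points are the 10 genes past an edgeR adjusted p of 0.05, from URT1 at −4.89 to HESO1 at 6.71, blue points are 20 further genes that DESeq2 alone called, and grey points are all others, which widen about 0 at low levels.

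Total counts on genes were 19304121, 30204916 and 25625320 in WT and 32791298, 37592790 and 38853305 in the libraries labelled heso1-4 urt1-1, so that each mutant library was deeper than each WT library. With all seed libraries thinned to 19304121 counts, 7 genes were higher and 4 lower, with all 10 genes among them. Messages of storage proteins and oil body proteins, which mark seed, summed to between 97532 and 154746 CPM in WT and between 103034 and 145402 CPM in the mutant libraries. Markers of other tissues were low: floral organ identity genes summed to 1.78 to 6.74 CPM in WT and 1.68 to 2.32 CPM in the mutant libraries, pollen genes to 10.8 to 16.8 and 8.56 to 11.4 CPM, and leaf photosynthesis genes to 50.3 to 109 and 67.1 to 84.2 CPM. Of these markers 3 of 11, 3 of 10 and 13 of 13 passed the filter on low counts, 0 were called, and 0 had no count in all 6 libraries. Endosperm genes (5 of 10 measured, 1 without a count in any of the 6) summed to 2136 to 3372 and 2404 to 2859 CPM and seed coat genes (10 of 14, 1 without a count) to 28.05 to 38.97 and 27.97 to 40.55 CPM, with 0 called in either list. Nearly all of the endosperm sum came from EPR1, with means of 2712 CPM in WT and 2666 CPM in the mutant libraries. The other measured endosperm genes had means of at most 1.19 CPM in both groups. In these bulk samples, fewer cells of a type and less RNA per cell cannot be told apart.

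The first group of genes lies in the ribosomal DNA, the repeated arrays of ribosomal RNA genes on chromosomes 2 and 4 that the reference also shows in part on chromosome 3. MIR5642b (AT2G03855, chr2:2805-3176, plus strand) and MIR5642a (AT3G06345, chr3:14196774-14197147, plus strand) are annotated precursor genes of the same microRNA, one at each place. The precursors span 372 and 374 bases, and an alignment of the reference sequences gave 368 identical positions, 4 mismatches and 2 gap positions, an identity of 98.4%. The mismatches, counted from the 5′ end of MIR5642a, are T150G, T165G, A166T and C367T, with the letter of MIR5642a first. The stretch that holds most of these differences is printed because only reads that cover such letters can be told apart between the copies (reference TAIR10.1, MIR5642a at chr3:14196899-14196958 and MIR5642b at chr2:2930-2987, both plus strand). Capitals mark the letters that differ or are missing in the other copy.
MIR5642a: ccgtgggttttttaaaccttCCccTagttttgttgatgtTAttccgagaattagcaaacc
MIR5642b: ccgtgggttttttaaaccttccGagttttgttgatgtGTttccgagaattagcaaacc

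The annotated mature microRNAs of both genes have the same letters, so that they share their seed (bases 2 to 8, capitals), at chr3:14197116-14197135 for miR5642a and chr2:3145-3164 for miR5642b. Mature microRNAs were not measured in these libraries.
miR5642a: uCUCGCGCuuguacggcuuu
miR5642b: uCUCGCGCuuguacggcuuu

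The copies moved in opposite directions. MIR5642b stood at 122, 89.9 and 95.3 CPM in WT and at 309, 340 and 296 CPM in the libraries labelled heso1-4 urt1-1. MIR5642a stood at 883, 696 and 691 CPM in WT and at 321, 309 and 282 CPM in the mutant libraries. The groups did not overlap for either gene. MIR5642b rose 3.08-fold (log2 1.62 ± 0.14, edgeR adjusted p = 4.9e-05) and MIR5642a fell 2.49-fold (log2 −1.32 ± 0.14, edgeR adjusted p = 0.00038). AT2G01008 (chr2:1025-3173, plus strand), a gene annotated as a maternal effect embryo arrest protein, overlaps MIR5642b on the same strand, and a read in the overlap was counted for both. It stood at 253, 184 and 197 CPM in WT and at 645, 730 and 635 CPM in the mutant libraries. All 3 mutant libraries were higher than all WT libraries (log2 1.66 ± 0.15, edgeR adjusted p = 6.4e-05).

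As a share of the counts of both MIR5642 copies, which have nearly the same length, MIR5642b took 12.15%, 11.44% and 12.12% in the WT seed libraries and 49.11%, 52.4% and 51.27% in the libraries labelled heso1-4 urt1-1. The mean share was 11.9% ± 0.4 in WT and 50.93% ± 1.67 in the mutant (SD, n = 3), a difference of 39.02 percentage points. It was 24.17% ± 0.55 in urt1-1 seeds and 5.87% ± 0.77 in seeds labelled heso1-4, so that all urt1-1 libraries lay above all WT libraries and all libraries labelled heso1-4 below them. The means in flower buds had the same order, with 13.21% ± 1.87 in WT, 28.27% ± 0.74 in urt1-1, 7.15% ± 3.96 in buds labelled heso1-4 and 37.09% ± 4.6 in buds labelled heso1-4 urt1-1. In each tissue the 3 libraries labelled heso1-4 urt1-1 lay above the 3 WT libraries, and the exact two-sided permutation test gave p = 0.1, the smallest that 3 against 3 can give. This share was chosen after the values of both genes had been seen.

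**Figure D2:**
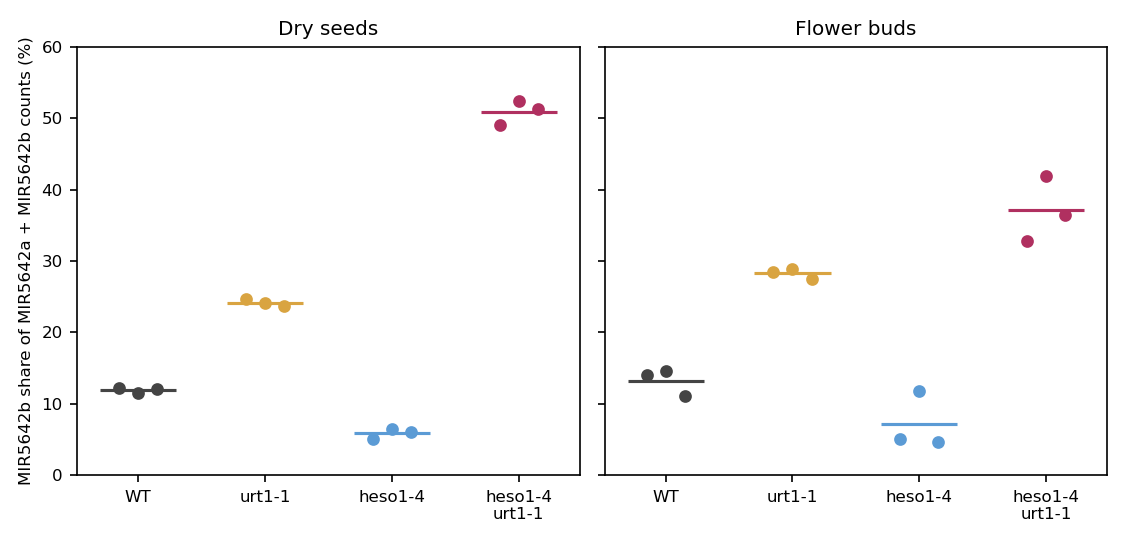
Share of MIR5642b in the summed counts of MIR5642a and MIR5642b (percent) in each library, with dry seeds on the left and flower buds on the right. Points are libraries and lines are means of 3, and the seed libraries labelled heso1-4 urt1-1 sit between 49.11% and 52.4% while WT sits between 11.44% and 12.15%.

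How far reads can be assigned to one copy was measured on the reference genome. Of all 50-base windows of MIR5642b, 22.9% occur once in the genome, of MIR5642a 11.7% and of AT2G01008 26.8%, against 98.7% for ARP9, 99.6% for URT1 and 100.0% for HESO1. The levels of the 3 ribosomal DNA genes are therefore uncertain, and the sources used here do not give how the authors' counting treated reads that map to several places. Of the 7 measured genes within 10000 bases of the ribosomal RNA genes at the start of chromosome 2, 2 rose, MIR5642b and AT2G01008, and 0 fell. Of the 8 measured at the chromosome 3 copy, 1 fell, MIR5642a, and 0 rose, against backgrounds of 0.039% higher and 0.0167% lower. MIR5642b and AT2G01008 share the reads of their overlap, so they are not separate cases. These places were looked at because called genes lie there, so the counts cannot be weighed against the backgrounds. At the chromosome 3 copy the long non-coding RNA AT3G06355 (chr3:14199575-14200076) stood at 163, 113 and 105 CPM in WT and at 36.2, 20.3 and 21.7 CPM in the mutant libraries (log2 −2.29 ± 0.54, edgeR adjusted p = 0.32, DESeq2 adjusted p = 0.023). AT3G41761 (chr3:14195917-14196078), also at this copy, stood at 33.0, 26.6 and 34.9 CPM in WT and at 20.8, 20.4 and 18.8 CPM in the mutant libraries (log2 −0.65 ± 0.15, edgeR adjusted p = 0.20, DESeq2 adjusted p = 0.021). Of the 50-base windows of AT3G06355, 27.6% occur once in the genome, and of AT3G41761 62.8%, so their levels are uncertain too. The share of all counts on ribosomal DNA genes varied widely within both groups, from 0.298% to 1.357% in WT and from 0.257% to 0.775% in the mutant libraries, and its part in these values was not tested.

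A further called gene lies beside URT1. AT2G45630 (chr2:18795926-18797263, plus strand), a gene of the D-isomer specific hydroxyacid dehydrogenase family, starts 21 bases after the annotated end of URT1 on the same strand. These 21 bases, at chr2:18795905-18795925 of the reference, are all that separates the 2 annotations.
URT1 to AT2G45630 gap: gatggtgatgtgggtggattt

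AT2G45630 had 34, 59 and 32 counts in the WT libraries and 0, 3 and 4 in the deeper libraries labelled heso1-4 urt1-1. All mutant libraries lay below all WT libraries (log2 −4.67 ± 0.72, edgeR adjusted p = 0.018), and the size of this change depends on the prior count because one library had no count. In urt1-1 seeds it stood at 0.285, 0.240 and 0.0542 CPM, against 1.66, 1.92 and 1.35 CPM in WT and 1.84, 1.09 and 0.649 CPM in seeds labelled heso1-4. The difference of the double from the heso1-4 label was called (log2 −4.22 ± 0.72, edgeR adjusted p = 0.047) and its difference from urt1-1 was not (−1.58 ± 0.80, adjusted p = 1.0). The AT2G45630 call against WT was lost without any one of WT replicates 1 and 2 or of the 3 mutant replicates (adjusted p from 0.068 to 0.12). Other genes around URT1 did not pass the test, with log2 changes of 0.39 for AT2G45590, −0.10 for AT2G45600 and 0.12 for SAP18. Next to HESO1, RCA stood at −0.23 and AT2G39750, on the other strand and overlapping the last bases of HESO1, at 0.22 (edgeR adjusted p = 0.86 and 0.76).

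The remaining called genes lie apart from both targeted genes. AT2G16586 (chr2:7190937-7192071, plus strand), which encodes an uncharacterised protein, stood at 8.69, 5.23 and 3.94 CPM in WT and at 47.5, 41.3 and 42.4 CPM in the libraries labelled heso1-4 urt1-1. The groups did not overlap, and AT2G16586 rose 7.35-fold (log2 2.89 ± 0.30, edgeR adjusted p = 0.0013). The single mutants stood at 11.01 ± 3.66 CPM in urt1-1 and 8.46 ± 2.23 CPM in seeds labelled heso1-4 (SD, n = 3). The double lay above each of them (log2 1.99 ± 0.28, edgeR adjusted p = 0.036, and 2.37 ± 0.29, adjusted p = 0.0076), while its departure from additivity was not called (1.48 ± 0.41, adjusted p = 1.0). Of its 50-base windows 60.7% occur once in the genome.

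AT5G24240 (chr5:8230916-8234150, minus strand) is annotated as a gamma-like kinase of phosphatidylinositol, a membrane lipid. It stood at 0.977, 1.20 and 1.78 CPM in WT and at 4.38, 6.52 and 8.00 CPM in the libraries labelled heso1-4 urt1-1. All mutant libraries were higher (log2 2.25 ± 0.32, edgeR adjusted p = 0.0083). The single mutants stood at 1.47 ± 0.569 CPM (urt1-1) and 0.939 ± 0.0446 CPM (heso1-4 label), and the double lay above each (2.09 ± 0.31, edgeR adjusted p = 0.020, and 2.74 ± 0.33, adjusted p = 0.0018). The AT5G24240 call against WT was lost without WT replicate 1 (adjusted p = 0.071), WT replicate 2 (0.12) or mutant replicate 3 (0.074).

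AT2G34700 (chr2:14634090-14635627, minus strand) is annotated as a relative of Ole e 1 allergens and extensins, which are cell wall proteins. It stood at 1.47, 1.95 and 1.57 CPM in WT and at 5.98, 8.07 and 7.95 CPM in the libraries labelled heso1-4 urt1-1 (log2 2.13 ± 0.24, edgeR adjusted p = 0.00053). The level in urt1-1 seeds, 5.59, 8.22 and 5.91 CPM, overlapped with that in the double (log2 difference 0.16 ± 0.21, adjusted p = 1.0), and the level labelled heso1-4, 1.52, 1.93 and 2.51 CPM, overlapped with WT. ARP9 (AT5G43500, chr5:17469490-17473619, plus strand), which encodes an actin-related protein, showed the reverse arrangement. It stood at 6.79, 8.34 and 9.44 CPM in WT and at 23.4, 26.1 and 26.4 CPM in the double, a 3.09-fold rise (log2 1.62 ± 0.14, edgeR adjusted p = 4.1e-05). Seeds labelled heso1-4 stood at 28.0, 26.5 and 24.8 CPM, overlapping with the double (log2 difference −0.06 ± 0.13, adjusted p = 0.89), and urt1-1 seeds at 7.98, 9.59 and 10.7 CPM, overlapping with WT. All of these seed comparisons share libraries, so their values are set side by side only.

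**Figure D3:**
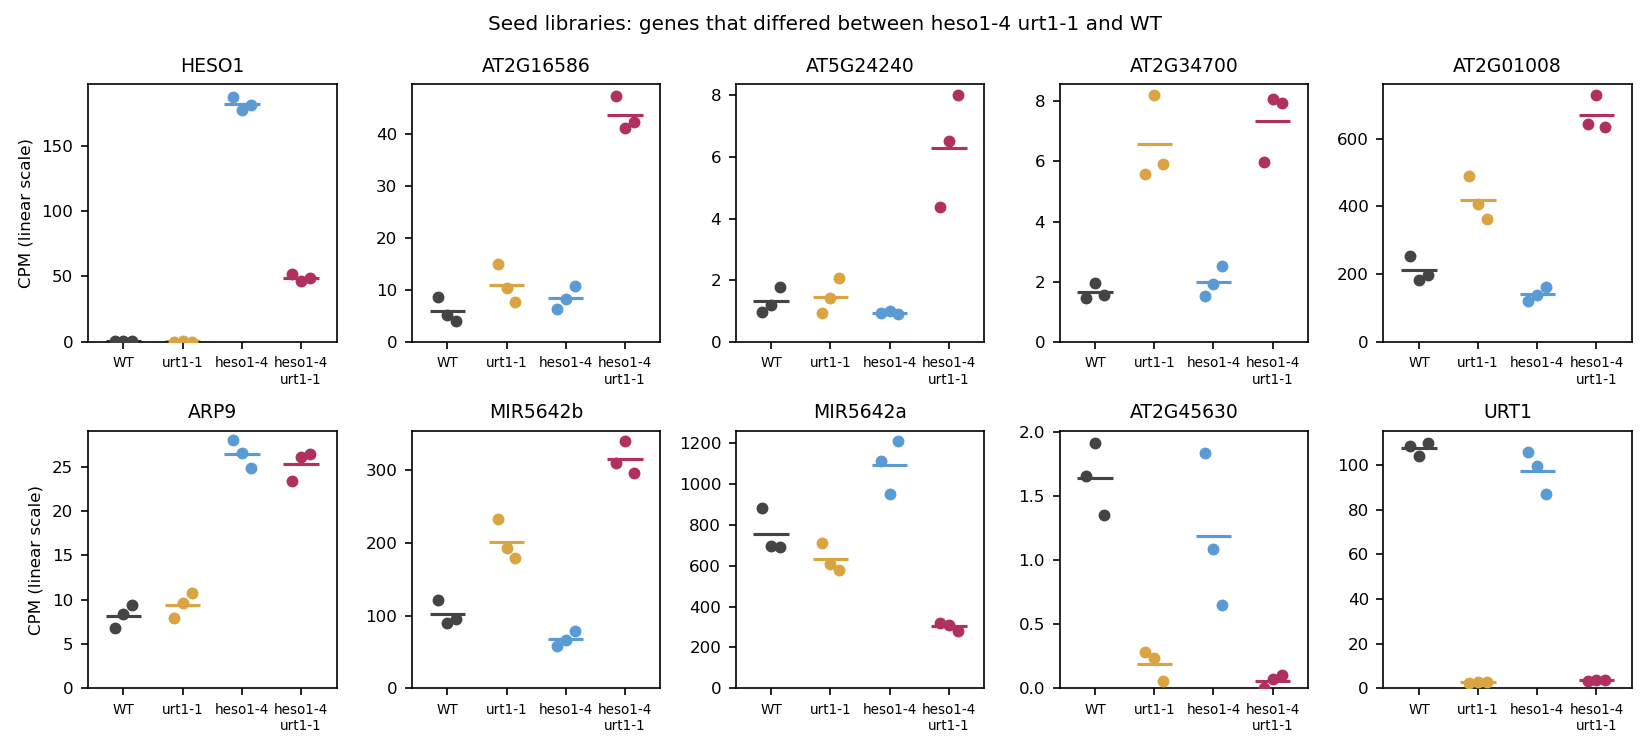
CPM (linear scale from 0, each panel with its own axis) of the 10 genes called between the libraries labelled heso1-4 urt1-1 and WT, in all 12 seed libraries by labelled genotype. Points are libraries and lines are means of 3. The double stands with urt1-1 for AT2G34700 and URT1 and with the heso1-4 label for ARP9. It stands apart from both for AT2G16586, AT5G24240, MIR5642a and MIR5642b, and below the heso1-4 label for HESO1.

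Against urt1-1 seeds, the libraries labelled heso1-4 urt1-1 had 4 genes higher (0.0223%) and 3 lower (0.0167%), and against seeds labelled heso1-4, 6 higher (0.0334%) and 7 lower (0.039%). MIR5642a was lower in the double than in urt1-1 (log2 −1.06 ± 0.14, edgeR adjusted p = 0.0081) and than in the heso1-4 label (−1.85 ± 0.14, adjusted p = 6.1e-06). Its change in the double departed from the sum of the changes of both single mutants by −1.59 ± 0.20 (edgeR adjusted p = 0.0075). That departure was called for 2 genes, both lower (0.0111%), of which the other was AT1G64795.

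The same contrast in flower buds called 2 genes higher (0.00876%), HESO1 and ARP9, and 1 lower (0.00438%), URT1, of 22841 genes tested. ARP9 stood at 16.7, 13.9 and 13.99 CPM in WT buds and at 37.1, 32.7 and 35.7 CPM in buds labelled heso1-4 urt1-1, a rise of 1.24 ± 0.12 (log2, edgeR adjusted p = 0.0024). AT2G34700 was at 0.18 ± 0.31 and AT2G16586 at 1.38 ± 0.35 in buds, neither called (edgeR adjusted p = 1.0 each). The difference between the tissues was called for 1 of 23557 genes (0.00425%), HESO1, whose rise was larger in seeds by 4.52 ± 0.32 on the log2 scale (edgeR adjusted p = 1.4e-07). HESO1 stood at 14.2, 14.2 and 13.4 CPM in WT buds and at 84.0, 46.3 and 64.8 CPM in buds labelled heso1-4 urt1-1, with CPM scaled within each tissue. For AT2G45630 the difference was −3.99 ± 0.66 (adjusted p = 0.070) and for AT2G34700 1.98 ± 0.40 (adjusted p = 0.39). RNA extraction differed between seeds and buds, and the effects of tissue and of extraction cannot be told apart.

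**Figure D4:**
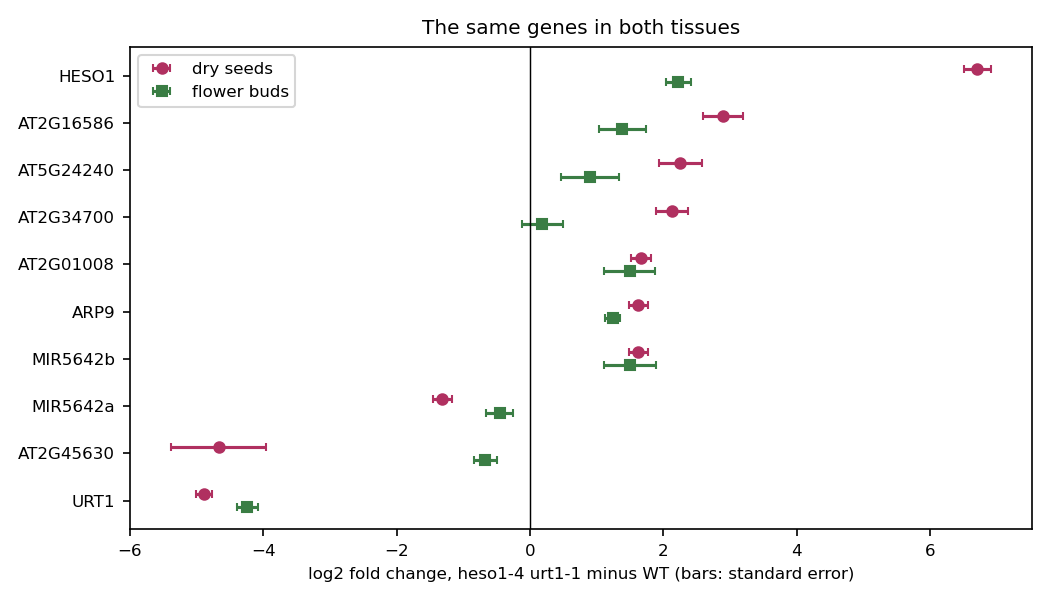
Log2 fold change (libraries labelled heso1-4 urt1-1 minus WT) of the 10 genes called in seeds, in dry seeds (circles) and flower buds (squares). Bars are standard errors, and the estimates of each gene lie on the same side of 0 in both tissues, with the widest gap for HESO1, at 6.71 in seeds and 2.22 in buds.

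Beyond these genes, DESeq2 called 51 genes higher and 18 lower that edgeR did not, all with the 3 mutant libraries beyond the 3 WT libraries, an arrangement found for 9.14% (above) and 7.69% (below) of all genes tested. The 10 with the smallest edgeR p in each direction are described here, and their edgeR adjusted p lay between 0.064 and 0.23. Among those higher, MYB33 (AT5G06100), a transcription factor that promotes programmed cell death in the aleurone and that miR159 holds down in Arabidopsis, stood at 25.6, 22.6 and 24.2 CPM in WT and at 36.1, 34.0 and 35.6 CPM in the libraries labelled heso1-4 urt1-1. The groups were tight and apart (log2 0.55 ± 0.10, edgeR adjusted p = 0.068, DESeq2 adjusted p = 0.00039). AT1G56220, of the dormancy and auxin associated family, stood at 113, 127 and 118 CPM in WT and at 176, 192 and 174 CPM in the mutant libraries (0.59 ± 0.11, edgeR adjusted p = 0.068, DESeq2 0.00010). CHC1, a subunit of SWI/SNF chromatin remodelling complexes, stood at 55.4, 54.8 and 59.3 CPM and at 75.6, 78.5 and 78.7 CPM (0.46 ± 0.09, edgeR adjusted p = 0.15, DESeq2 0.0013). The ribosomal protein genes AT3G55750, AT5G56670 and AT3G58700 were between 0.43 and 0.56 above WT on the log2 scale. The other 4 were AT5G62350, of the invertase and pectin methylesterase inhibitors (1.03), AT4G20860, of the berberine bridge enzyme-like oxidases (1.00), the lectin kinase gene AT1G15530 (0.54) and the nucleotide-sugar transporter gene AT4G32390 (0.56).

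Among those lower, RTFL12, a gene of the small ROTUNDIFOLIA-like peptides, stood at 14.3, 13.6 and 10.4 CPM in WT and at 5.57, 7.87 and 7.13 CPM in the libraries labelled heso1-4 urt1-1 (log2 −0.89 ± 0.16, edgeR adjusted p = 0.064, DESeq2 0.00017). TPPF, a trehalose-6-phosphate phosphatase gene, stood at 7.08, 6.36 and 6.94 CPM and at 4.26, 3.80 and 3.64 CPM (−0.80 ± 0.15, edgeR adjusted p = 0.12, DESeq2 0.0013). ERF73 and ERF2 belong to the ethylene response factor family. ERF73, which responds to low oxygen, stood at 6.25, 6.46 and 7.07 CPM in WT and at 3.68, 4.05 and 3.38 CPM in the mutant libraries (−0.83 ± 0.17, edgeR adjusted p = 0.15, DESeq2 0.0037). ERF2 was at −0.93, the glycosyltransferase gene GT72B1 at −0.99, the pentatricopeptide repeat gene AT1G12775 at −0.77, AT5G57410 at −0.68, TRFL9 at −0.58 and AT2G42300, a bHLH gene, at −0.44, with AT3G41761 given with the ribosomal DNA genes.

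Because MYB33 is a target of miR159, its site and those of 2 related targets are shown, with miR159a (chr1:27713234-27713254, minus strand) above them and its seed in capitals. In the sites, read from the annotated genes on the reference, capitals mark the letters that pair with miR159a, 18 of 21 in MYB33 (chr5:1839579-1839599) and MYB65 (chr3:3604151-3604171) and 19 of 21 in MYB101 (chr2:13783168-13783188, minus strand).
miR159a: uUUGGAUUgaagggagcucua
MYB33: TgGAGCTCCCTTCAtTCCAAt
MYB65: TgGAGCTCCCTTCAtTCCAAt
MYB101: TAGAGCTtCCTTCAAaCCAAA

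MYB65 stood at 12.2, 11.5 and 13.2 CPM in WT and at 15.6, 15.2 and 15.71 CPM in the libraries labelled heso1-4 urt1-1, with no overlap (log2 0.33 ± 0.12, edgeR adjusted p = 0.45). MYB101 stood at 11.3, 11.7 and 12.5 CPM in WT and at 17.44, 12.2 and 19.9 CPM in the mutant libraries, where one library lay within the WT range (0.48 ± 0.15, edgeR adjusted p = 0.41). Over the list of microRNA and tasiRNA targets, 39 of 47 members were measured, 0 passed the edgeR test in either direction, 4 were higher and 2 lower at an unadjusted p under 0.05, and the median was 0.056, beside −0.0061 over all genes. Over all genes 4.72% were higher and 3.9% lower at that unadjusted p, and the median of the target list was −0.0077 without WT replicate 3 and 0.0018 without mutant replicate 2. PHO2, a miR399 target that limits phosphate uptake, was among those 6 and stood at 517, 497 and 661 CPM in WT and at 400, 436 and 453 CPM in the mutant libraries (−0.38 ± 0.16, edgeR adjusted p = 0.53). Of 325 annotated microRNA precursor genes, 34 were measured, and the MIR5642 copies were the only ones called, 1 in each direction. Over all genes 0.039% were called higher and 0.0167% lower. The copies are nearly identical and their reads hard to assign, so they are not separate cases.

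The machinery that uridylates and decays RNA, apart from URT1 and HESO1, did not pass the test. All 28 members were measured, 1 rose (HESO1) and 1 fell (URT1), and the median log2 fold change was 0.012. Without single libraries this median lay on either side of 0, from −0.014 without WT replicate 1 to 0.039 without WT replicate 3. The exosome ribonuclease gene RRP44A stood at 65.0, 67.3 and 63.6 CPM in WT and at 75.4, 77.2 and 75.4 CPM in the libraries labelled heso1-4 urt1-1 (0.22 ± 0.09, edgeR adjusted p = 0.52). PAB8, a poly(A) binding protein gene, was at 0.32 ± 0.14 (edgeR adjusted p = 0.55). Of the 20 small RNA machinery genes, all measured, 0 were called in either direction by edgeR or DESeq2, 1 was higher at an unadjusted p under 0.05, beside 4.72% of all genes, and the median was 0.062. That median turned to −0.015 without WT replicate 3 and to −0.025 without mutant replicate 2, and was 0.12 without WT replicate 1 and 0.040 without mutant replicate 3. HYL1, which helps cut microRNA precursors, had the smallest p of them and stood at 0.65 ± 0.28 (edgeR adjusted p = 0.55).

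Messages for ribosomal proteins stood above WT as a group without any passing edgeR's test. A wider list of cytosolic ribosomal protein families, drawn up after the data had been seen, was picked by words in the gene descriptions. It left out some ribosomal protein genes, such as AT3G58700, and took in genes described only by a superfamily, such as AT3G01170. DESeq2 called higher 14 genes with ribosomal in their description, and how many of the genes tested carry that word was not counted. Of the 100 measured genes of the wider list, 0 were called in either direction by edgeR. DESeq2 called 5 of them higher and 0 lower, beside 0.323% and 0.111% of all genes. At an unadjusted p under 0.05, 52 were higher and 2 lower, beside 4.72% and 3.9% of all genes, and 90 had a log2 fold change above 0, beside 48.9% of all genes. In the narrower list, taken only from genes described as proteins of the small or large cytosolic subunit, 15 of 21 were measured and 0 called by edgeR, with 2 higher and 1 lower at an unadjusted p under 0.05, 5 with all mutant libraries above and 1 with all below all WT libraries, and a median of 0.25 (0.39 without WT replicate 1). For 58 of the 100 in the wider list, all mutant libraries lay above all WT libraries, beside 9.14% of all genes, and the median was 0.32. The summed CPM of the wider list ran from 3840 to 4486 in WT and from 4746 to 5450 in the libraries labelled heso1-4 urt1-1, without overlap. AT2G27710, a gene of the acidic ribosomal proteins, stood at 31.3, 26.3 and 27.6 CPM in WT and at 48.0, 38.8 and 41.6 CPM in the mutant libraries (0.59 ± 0.13, edgeR adjusted p = 0.20, DESeq2 0.023). AT3G55750 stood at 23.64, 20.8 and 23.1 CPM in WT and at 38.5, 30.4 and 30.6 CPM in the mutant libraries (0.56 ± 0.11, edgeR adjusted p = 0.15, DESeq2 0.0072).

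Heat shock proteins, chaperones that dry seeds store, were measured in all 17 members, of which 0 were called by edgeR in either direction, 4 were higher at an unadjusted p under 0.05, beside 4.72% of all genes, and the median was 0.093. It was 0.21 with WT replicate 1 left out and 0.17 with either WT replicate 2 or mutant replicate 3 left out. The 4 higher genes encode small chaperones, but other small chaperones of the list did not reach that level. HSP17.6A and HSP17.4, with WT means of 2081.5 and 693 CPM, stood at 0.15 and 0.093. HSP17.6II stood at 0.084 and HSP23.6-MITO at 0.54 ± 0.41. HSP21, which acts in plastids, stood at 1.07, 0.909 and 0.931 CPM in WT and at 2.47, 3.92 and 2.02 CPM in the libraries labelled heso1-4 urt1-1 (1.53 ± 0.31, edgeR adjusted p = 0.15). ATHSP22.0 stood at 12.8, 14.3 and 6.81 CPM in WT and at 40.8, 29.2 and 22.3 CPM in the mutant libraries, and was the member DESeq2 called (1.44 ± 0.36, edgeR adjusted p = 0.36, DESeq2 0.0037). AT2G29500 and AT1G53540 stood 0.57 ± 0.16 and 0.48 ± 0.16 above WT (edgeR adjusted p = 0.38 and 0.44), and for AT1G53540 the groups overlapped.

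Storage protein and oil body genes had a median of −0.013, with 16 of 16 measured, 0 called, 8 above 0 and 1 lower at an unadjusted p under 0.05, beside 3.9% of all genes. The median ran from −0.13 without WT replicate 1 to 0.23 without WT replicate 3, and was 0.088 without mutant replicate 2. CRB, a cruciferin gene, stood at 4266, 5187 and 5474 CPM in WT and at 2660, 3393 and 2727 CPM in the libraries labelled heso1-4 urt1-1, the one member of 16 whose groups did not overlap, an arrangement below WT that 7.69% of all genes showed (−0.77 ± 0.24, edgeR adjusted p = 0.41). SESA1, a 2S albumin gene, went the other way and overlapped, at 1538, 1353 and 2709 CPM in WT and at 3064, 1899 and 3227 CPM in the mutant libraries (0.55 ± 0.32, edgeR adjusted p = 0.66).

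Genes of late embryogenesis abundant (LEA) proteins and of the abscisic acid response, with 19 of 19 measured, had 0 called by edgeR, 1 higher and 1 lower at an unadjusted p under 0.05, beside 4.72% and 3.9% of all genes, and a median of −0.10, which was −0.0081 without WT replicate 3 and −0.066 without mutant replicate 1. The phosphatase gene HAI3, a brake on abscisic acid signalling, stood at 51.9, 55.6 and 64.4 CPM in WT and at 86.8, 82.2 and 90.4 CPM in the libraries labelled heso1-4 urt1-1 (0.59 ± 0.13, edgeR adjusted p = 0.20, DESeq2 0.023). ABI1, another phosphatase of the same clade, stood lower in the mutant libraries (−0.51 ± 0.19, edgeR adjusted p = 0.50). Regulators of maturation, dormancy and germination, with 22 of 26 measured, had 0 called by either tool, 2 lower at an unadjusted p under 0.05, beside 3.9% of all genes, and a median of −0.16, which was −0.080 without WT replicate 3. BZIP53, an activator of storage protein genes, stood at 39.8, 43.2 and 66.7 CPM in WT and at 28.4, 27.5 and 36.5 CPM in the mutant libraries (−0.70 ± 0.24, edgeR adjusted p = 0.47). ABI3, a master regulator of maturation, was at −0.31 ± 0.12 (edgeR adjusted p = 0.50).

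Salicylic acid and defence genes, with 10 of 15 measured, had 0 called by edgeR, 3 lower at an unadjusted p under 0.05, beside 3.9% of all genes, and the lowest median of the lists shown in the plot of gene lists, −0.82. That median rests partly on low counts, as WRKY70, PR2, SARD1 and PR1 had WT means of 0.27, 0.53, 0.53 and 0.43 CPM. WRKY70 was among the 3 lower genes. ICS1, the isochorismate synthase gene of salicylic acid synthesis, stood at 29.5, 37.0 and 53.3 CPM in WT and at 17.0, 19.8 and 20.6 CPM in the libraries labelled heso1-4 urt1-1 (−1.06 ± 0.26, edgeR adjusted p = 0.29, DESeq2 0.0083). EDS5, which moves its product out of the plastid, was at −0.57 ± 0.15 (edgeR adjusted p = 0.31). The log2 CPM of each member was also set against its WT mean, and the median over the list was 0.24 for WT replicate 1, 0.30 for WT replicate 2 and −0.88 for WT replicate 3. In the mutant libraries this median was −0.82, −0.94 and −0.56, close to WT replicate 3 and below the other WT libraries. Short-lived stress messages, with 16 of 20 measured, had 0 called by either tool, 4 lower at an unadjusted p under 0.05, beside 3.9% of all genes, and a median of −0.21. The median was −0.080 without WT replicate 1 and −0.32 without mutant replicate 3. In this list, the ethylene synthesis gene ACS6 stood at −1.01 ± 0.32 and the stress transcription factor gene RAP2.6 at −0.61 ± 0.16 (edgeR adjusted p = 0.43 and 0.31).

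Organelle genes had medians below 0, with 0 called. Of 100 measured plastid-encoded genes the median was −0.092, 21 lay above 0 and 3 were lower at an unadjusted p under 0.05, beside 3.9% of all genes. Of 29 measured mitochondrion-encoded genes the median was −0.20, 2 lay above 0 and 3 were lower at that level. Plastid genes held 6.917% to 7.76% of counts in WT and 5.486% to 6.865% in the libraries labelled heso1-4 urt1-1, and mitochondrial genes 1.398% to 1.677% and 1.202% to 1.361% (exact two-sided permutation test p = 0.1 for each, the smallest possible). Much of the plastid share lay in ATCG00020, with means of 49108 CPM in WT and 37982 CPM in the mutant libraries. All plastid genes together summed to 65219 to 84153 and 50900 to 65842 CPM. Of the mitochondrial genes, ATMG00020 had means of 3959 and 2705 CPM and ATMG01390 of 1266 and 722 CPM. A few abundant genes thus weigh heavily in both shares. The plastid median turned to 0.038 without mutant replicate 2, and was −0.21 without mutant replicate 1 and −0.060 without WT replicate 1. The mitochondrial median was −0.10 without WT replicate 3.

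**Figure D5:**
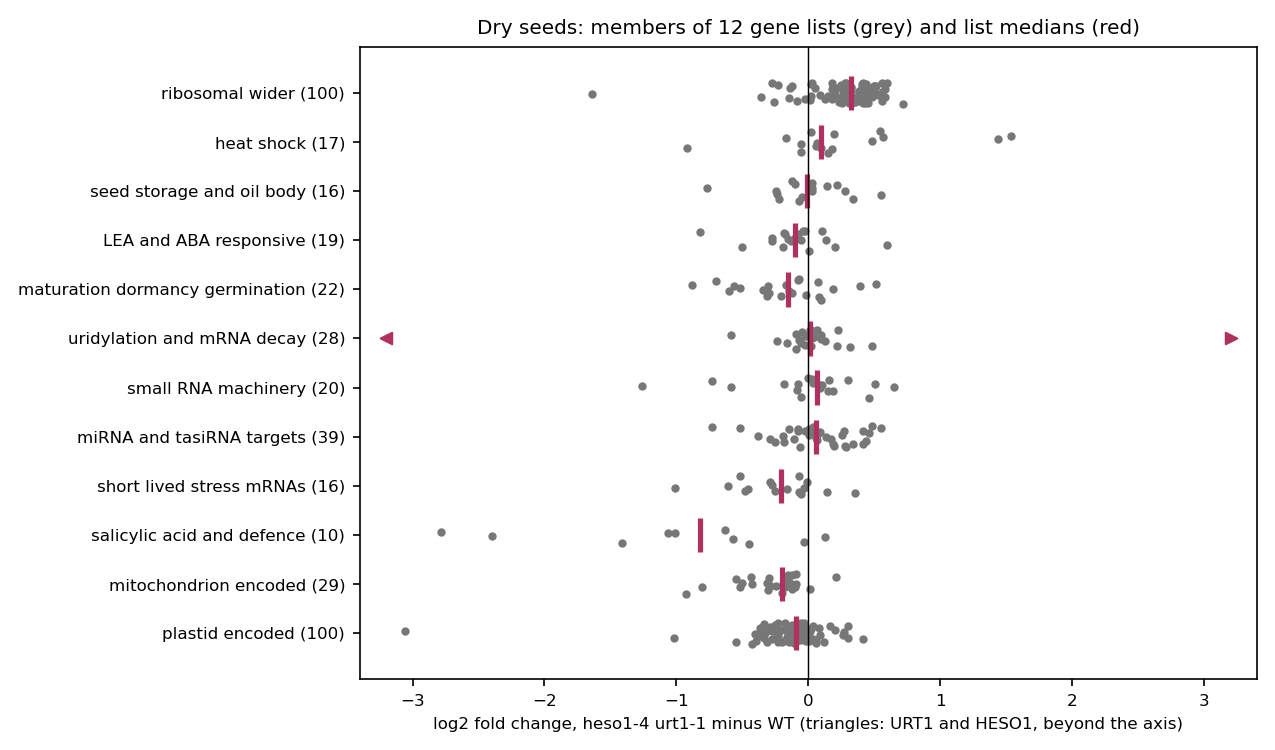
Log2 fold change (libraries labelled heso1-4 urt1-1 minus WT, dry seeds) of the measured members of 12 gene lists, 1 grey point per gene, with list medians as red bars and the number measured in brackets. The ribosomal protein points lie mostly right of 0 with a median of 0.32, defence genes mostly left with a median of −0.82, and the triangles mark URT1 and HESO1 beyond the axis.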

How the data were processed

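The 6 seed libraries compared, and the 18 others used beside them, were grouped and numbered by their labels, where replicates are called biological. The authors deposited raw counts per gene, 1 table per tissue, with each gene's length (other) in a column not used. Counting was done over whole genes with featureCounts 2.0.6, paired and reverse-stranded, and assigned reads to each gene they overlapped, per the file headers. The submitters' processing notes also name HISAT2 2.2.1, bcl2fastq, DESeq2 1.38.3, R 4.2.2 and the TAIR10 build. The sources used here do not give whether reads or pairs were counted. Of counts from 1 to 20, 69.1% to 77.2% were even in the 6 libraries.

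The test was the quasi-likelihood test of edgeR 4.0.16 under R 4.3.3 (minimum count of 10 in filterByExpr, TMM, robust quasi-likelihood fit, 1 mean per genotype over the 12 seed libraries, prior count 0.125), with Benjamini-Hochberg adjustment and a threshold of 0.05. The biological coefficient of variation was 0.18. Flowers were fitted alike, the tissue difference over all 24 libraries, and DESeq2 1.42.0 was an alternative. The scripts were tested on simulated data. Replicates differed by more than sampling noise (chi-square per degree of freedom 17.0 to 53.9). p-values measure the spread between these pools of plants. Same-numbered libraries of both groups correlated at 0.0705, 0.152 and 0.092, and differently numbered ones between −0.139 and 0.00806. The labels do not say that a number marks a shared batch, so replicate numbers were not taken as pairs.

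Of 33243 gene IDs, 33056 were found in the TAIR10.1 annotation of RefSeq, 33055 of them at the same position and strand, and sequences were read from that assembly with Biopython 1.88. Figures used matplotlib 3.10.9. The members and gene lists were chosen with earlier results of these data known. The text names URT1, HESO1, every gene called in seeds, 10 genes per direction called by DESeq2 only and without overlap of the groups, up to 4 members per list by smallest p, and neighbours and copies of called genes.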

Additional observations from a re-analysis of the deposited data

Results flagged for a closer look

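The change of HESO1 between the libraries labelled heso1-4 urt1-1 and WT was larger in seeds than in flower buds by 4.52 ± 0.32 on the log2 scale (edgeR interaction test over 24 libraries, adjusted p = 1.4e-07). WT seeds held 0.452 ± 0.115 CPM (SD, n = 3) and WT buds 13.9 CPM on average, while the libraries labelled heso1-4 urt1-1 held 49.1 ± 2.59 CPM in seeds and 65.1 CPM in buds, with CPM scaled within each tissue. MIR5642a departed in seeds labelled heso1-4 urt1-1 from the sum of the changes seen in urt1-1 and in the heso1-4 label by −1.59 ± 0.20 (edgeR adjusted p = 0.0075). It changed by −0.26 ± 0.14 in urt1-1, by 0.53 ± 0.14 in seeds labelled heso1-4 and by −1.32 ± 0.14 in the double.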

How the results depend on the processing

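Without any one library of the comparison, 6 to 9 genes were higher and 2 to 4 lower, HESO1 stayed between 6.60 and 6.98 and URT1 between −4.92 and −4.85 (log2), and the tissue difference was called higher for 1 gene and lower for 0. DESeq2 called 58 genes higher and 20 lower in seeds, and 8 higher and 8 lower for the tissue difference. With the replicate number as a block, edgeR called 154 higher and 52 lower in seeds, all 10 genes among them, and 9 and 5 for the tissue difference (block within tissue). The 10 genes per direction named from DESeq2 alone all passed with this block (edgeR adjusted p from 0.00345 to 0.0466). So did list members such as ICS1 and ACS6 (0.00087 each), HAI3 (0.00322), AT2G27710 (0.00479) and BZIP53 (0.00548). HSP21 (0.0185), EDS5 (0.0212) and RAP2.6 (0.0289) passed too, while others, such as CRB and ABI3, did not. Each library correlated best with its own number, a hint from the data and not from the design. AT2G45630 and AT5G24240 lost their calls without single libraries, as given with each gene, and with WT replicate 1 and mutant replicate 3 both left out, a pair chosen after seeing the data (adjusted p = 0.24 and 0.48, 6 genes higher and 2 lower). The other 8 called genes kept their calls in every alternative run in which they were tested, and none of the 10 called genes changed sign. Without heso1-4 replicate 3 in the fit, a library outside the comparison, 9 genes were higher and 3 lower. AT1G56220 and CHC1 then passed (edgeR adjusted p = 0.018 and 0.0495). In that library AT2G41310 and AT1G15405 held 9.528% and 9.053% of counts, beside at most 4.35% and 3.499% in the 6 libraries compared. With organellar, ribosomal DNA and 2 dominant genes left out, 5 were higher and 2 lower because the 3 ribosomal DNA genes were not tested. The causes of the other differences were not tested. List medians were less stable, and those of the storage protein (−0.20 to 0.23), plastid (−0.21 to 0.038), microRNA target (−0.0077 to 0.080), small RNA machinery (−0.025 to 0.13) and uridylation lists (−0.014 to 0.039) changed sign in at least 1 alternative. Low counts limit AT2G45630, and repeated sequence limits MIR5642a, MIR5642b and AT2G01008.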
